A study of Mus musculus with 4 samples.

Results

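The 10 genes described here are the 3 sensors of the unfolded protein response, Ern1, Atf6 and Eif2ak3, and 7 downstream factors of its ATF4-CHOP branch, Atf4, Ddit3, Ppp1r15a, Trib3, Atf3, Atf5 and Cebpb. They were taken by gene symbol, and all 10 were found among the 22722 genes of the read count tables. The cells were MPC11, an antibody-secreting tumour line of the mouse plasma cell lineage. In the depleted group (Ell2-KD, 2 libraries) they were transduced with the lentivirus pLKO.1-shELL2-1C7, which carries a short hairpin RNA against ELL2, an elongation factor of RNA polymerase II. In the control group (shGFP, 2 libraries) they were transduced with pLKO.1-shGFP, whose hairpin targets green fluorescent protein, a jellyfish protein with no mouse counterpart. All cells had polybrene with the virus for 18 h, puromycin for 72 h and a further 72 h of expansion in RPMI with 10% serum. Each group rests on 1 hairpin. Replicates are described as biological, but nothing in the labels tells whether they came from separate transductions. The p-values below therefore measure the spread between these samples. No treatment meant to stress the endoplasmic reticulum is named, so the values are RNA levels in hairpin-selected cells after virus and puromycin.

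The libraries held 13914488 and 3496471 counts in Ell2-KD replicates 1 and 2, against 8323915 and 5088789 in shGFP replicates 1 and 2. Ell2 had 87.8 and 115 CPM in Ell2-KD, against 938 and 996 in shGFP, where CPM measures a gene's reads relative to library size after TMM scaling (log2 fold change -3.25 ± 0.23, SE; edgeR adjusted p = 0.00032). Reads of an antisense transcript, 1700037F03Rik, can be among those counts. The 8 plasmacytoma markers summed to 17536 and 13812 CPM of all counts in Ell2-KD, against 21553 and 16541 in shGFP, with none at 0. Most of these counts came from Igj and Xbp1. Among the 8, Tnfrsf17, the plasma cell receptor BCMA, had 18 and 1 counts in Ell2-KD, against 159 and 126 in shGFP. Relative to library totals, Sdc1, Prdm1, Igj, Pou2af1 and Mzb1 were also lower in both depleted libraries than in both controls. Irf4 and Xbp1 overlapped. After TMM scaling, 18.5% of all tested genes were lower in that way. The part of these marker differences in the results below was not tested. Summed over all counts, 10 T and NK cell markers made up 1.01 and 5.15 CPM in Ell2-KD and 2.04 and 5.70 in shGFP. The 11 myeloid markers made up 4.6 and 4.58 CPM against 1.56 and 3.14, higher in both depleted libraries, with S100a8 and Fcgr3 at 0 in all 4 libraries. These myeloid sums were only 64 and 16 counts in Ell2-KD, against 13 and 16 in shGFP. Itgam alone gave 47 of the 64. The 5 erythroid markers summed to 0.575 and 0.286 CPM against 0.240 and 1.18, with Hbb-b1 at 0 in all 4 libraries. The 8 fibroblast and epithelial markers summed to 451 and 584 CPM against 493 and 628, nearly all of it from Epcam, with 6259 and 2024 counts in Ell2-KD and 4092 and 3171 in shGFP. In bulk RNA, fewer cells of a type and less RNA per cell cannot be told apart.

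The unfolded protein response lets a cell match the folding capacity of the endoplasmic reticulum (ER) to the load of secretory protein. IRE1 (gene Ern1) is a kinase and nuclease of the ER membrane that splices Xbp1 mRNA into its active form, ATF6 is cut in the Golgi to free a transcription factor for chaperone genes, and PERK (gene Eif2ak3) phosphorylates the initiation factor eIF2. That phosphorylation lowers general translation while letting ATF4 protein be made, and ATF4 then acts on CHOP (gene Ddit3) and on genes of amino acid supply. Plasma cells are known for a strong IRE1-XBP1 arm. Much of the pathway is set by splicing, cleavage, phosphorylation and translation, which counts per gene do not show.

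Of the 10 members, none passed the test between Ell2-KD and shGFP (edgeR quasi-likelihood test, Benjamini-Hochberg adjustment over 11027 genes, threshold 0.05), where 5 genes, 0.0453% of those tested, passed (0.00907% higher and 0.0363% lower in Ell2-KD). At an unadjusted p under 0.05 there was 1 member, Atf6, beside 5.82% of all tested genes, and DESeq2 called 0 of the 10 members, beside 0.443% of the genes it gave an adjusted p. In 2 members both Ell2-KD libraries lay above both shGFP libraries (Eif2ak3 and Atf5; 17.4% of all tested genes), and in 2 both lay below (Atf6 and Cebpb; 18.5% of all tested genes). That is 4 of 10 members with groups that did not overlap, close to the 35.8% of all tested genes. All 10 members had enough counts to be tested.

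The order of the members was much the same in both groups once levels were expressed per length. In CPM per kilobase of exon, Atf4 led with 125 ± 49.3 in Ell2-KD and 165 ± 29.7 in shGFP (SD, n = 2 each). Eif2ak3 followed in Ell2-KD with 50.1 ± 6.29 CPM per kilobase, and had 38.0 ± 5.33 in shGFP. Atf6 had 39.7 ± 0.02 CPM per kilobase in Ell2-KD, below Eif2ak3, and 62.3 ± 3.72 in shGFP, above it. Per kilobase, the order of these sensors thus differed between the groups, and within each group their values did not overlap. That order depends on the exon lengths used, since the count of Eif2ak3 was below that of Atf6 in every library. Atf5 came next, with 23.6 ± 0.83 CPM per kilobase in Ell2-KD and 21.0 ± 0.53 in shGFP, and then Ern1, with 16.4 ± 4.33 and 16.3 ± 2.90. Cebpb stood at 7.08 ± 1.27 CPM per kilobase in Ell2-KD and 13.0 ± 3.31 in shGFP. The 4 members below it, Atf3, Ppp1r15a, Ddit3 and Trib3, lay between 0.95 and 3.55 CPM per kilobase on average in Ell2-KD and between 1.52 and 6.01 in shGFP. Among these 4, neighbours in the order differed by less than the spread between the libraries of Ell2-KD, and in shGFP the same held for all but Ddit3 and Trib3. The CHOP gene was thus near the bottom of the set, at a level far below that of Atf4, which encodes its activator.

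**Figure D1:**
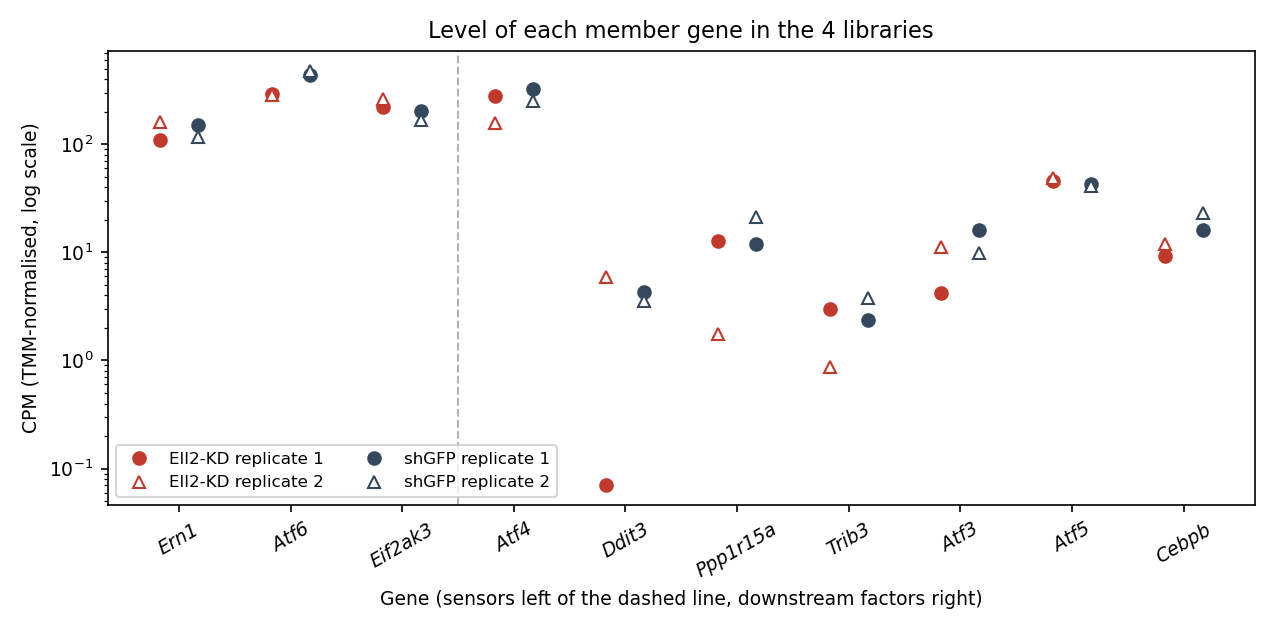
TMM-normalised CPM (log axis) of the 10 members in each library, red for Ell2-KD and dark blue for shGFP, with filled circles for replicate 1 and open triangles for replicate 2. The 3 sensors, Atf4 and Atf5 lay between 41.1 and 470 CPM, while Ddit3 in Ell2-KD replicate 1 lay at 0.071 CPM.

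The 3 sensors had log2 fold changes of unlike sign or size, none passed the test, and a difference between sensors was not tested. Atf6, which encodes the sensor that is itself a precursor of a transcription factor, had 288 and 288 CPM in Ell2-KD replicates 1 and 2, against 432 and 470 in shGFP. Both depleted libraries lay below both controls, and the depleted pair were almost equal. The log2 fold change was -0.65 ± 0.21 (SE), with a 95% interval from -1.11 to -0.19, an unadjusted p of 0.0098, and an edgeR adjusted p of 0.67. That unadjusted p ranked 161 among the 11027 genes. Whichever library was left out, the value stayed between -0.70 and -0.59, and over all alternatives tried the adjusted p ran from 0.17 to 1.00, so it did not pass in any of them.

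Eif2ak3, the PERK gene, stood on the other side of its controls. It had 221 and 264 CPM in Ell2-KD, against 202 and 165 in shGFP. The depleted libraries were the higher pair, though Ell2-KD replicate 1 was close to shGFP replicate 1. Its log2 fold change was 0.40 ± 0.24 (SE; 95% interval from -0.13 to 0.92; edgeR adjusted p = 0.91), and 0.26 to 0.56 with 1 library left out. Exons of Eif2ak3 overlap an antisense gene, Gm43292, in the GENCODE annotation.

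Ern1, the IRE1 gene, differed more between libraries of a group than between groups. It had 109 and 159 CPM in Ell2-KD, against 150 and 116 in shGFP, so the groups overlapped. The log2 fold change was 0.01 ± 0.29 (SE; edgeR adjusted p = 1.00), with a 95% interval from -0.63 to 0.64 that spans ratios of 0.648 to 1.56. Its sign turned when libraries were scaled by their totals only (-0.01), with the replicate number as a block (-0.01), and without Ell2-KD replicate 2 (-0.28) or shGFP replicate 2 (-0.17).

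The count of Eif2ak3 relative to Atf6 puts the contrast of these sensors on a scale that no library scaling can move. The ratio of counts was 0.767 and 0.918 in Ell2-KD, against 0.467 and 0.352 in shGFP. That the groups did not overlap follows from Eif2ak3 being higher and Atf6 lower in both depleted libraries. The ratio is therefore no separate support for the contrast. This pair was chosen after its values were seen, and the exact permutation test of 2 libraries against 2 cannot go below a two-sided p of 0.333, so no test is given. For Eif2ak3 relative to Ern1 the ratio was 2.03 and 1.66 in Ell2-KD, against 1.35 and 1.43 in shGFP, and for Atf6 relative to Ern1 it was 2.65 and 1.81, against 2.89 and 4.05.

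**Figure D2:**
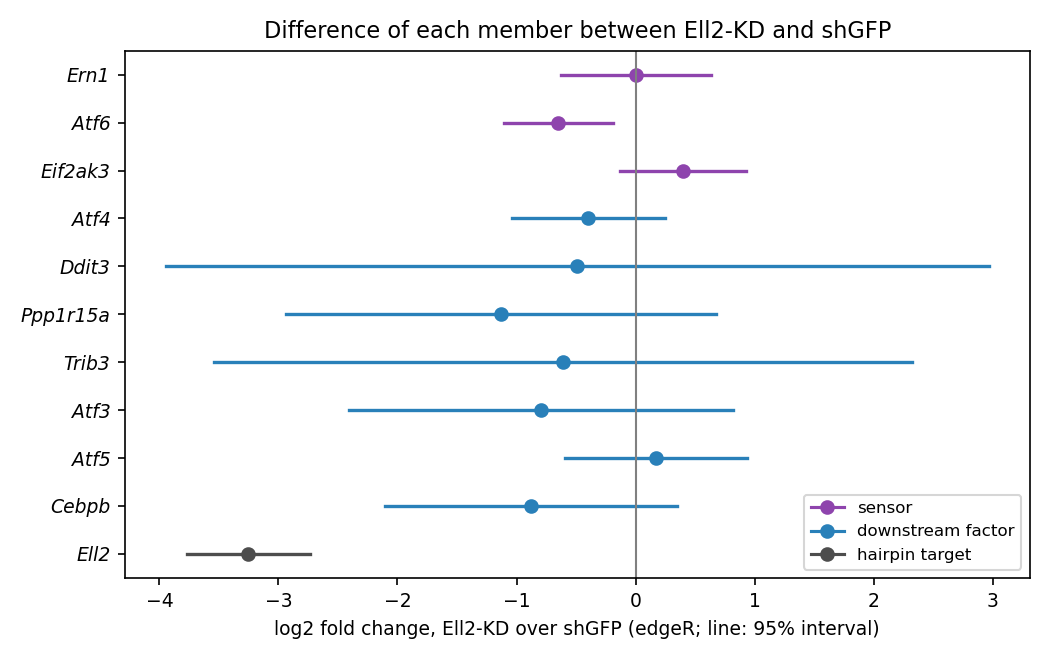
Log2 fold change of each member and of Ell2, Ell2-KD over shGFP, as a point with its 95% interval from edgeR (purple, sensors; blue, downstream factors; grey, the hairpin's target). The interval of Atf6, from -1.11 to -0.19, lies below 0; those of the other 9 members include 0, and Ddit3 has the widest, from -3.94 to 2.97.

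Genes around the ATF6 arm were read beside Atf6 itself. Atf6b, the paralog that is cut in the same way, had 266 and 133 CPM in Ell2-KD, against 115 and 96.6 in shGFP. Here the depleted libraries were the higher pair, with Ell2-KD replicate 1 far above the other 3 libraries (log2 fold change 0.92 ± 0.33, SE; edgeR adjusted p = 0.75). Without Ell2-KD replicate 2 the value was 1.34 and passed (edgeR adjusted p = 0.011, against 0.21 to 0.93 in the other alternatives), and without Ell2-KD replicate 1 it was 0.34. Mbtps1, the site 1 protease that makes the first cut in ATF6, had 271 and 333 CPM in Ell2-KD, against 203 and 226 in shGFP (log2 fold change 0.49 ± 0.23, SE; edgeR adjusted p = 0.86).

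Of 16 known targets of ATF6, apart from the members, 15 had a negative log2 fold change and none passed the test. Their median was -0.34, where that of all tested genes was -0.00 and 50.1% of tested genes were negative. The median of log2 CPM differences was -0.39 within replicate number 1 and -0.26 within number 2. In 6 of the 16 (37.5%) both Ell2-KD libraries lay below both shGFP libraries, beside 18.5% of all tested genes, and in none above, beside 17.4%. The list shares 2 genes with the IRE1-XBP1 list below and 3 with that of the sensors' partners. This list and those below were drawn up with earlier results of these data known. Their tallies are therefore descriptions, and no list was tested.

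Manf, a secreted ER stress protein, had 700 and 789 CPM in Ell2-KD, against 1007 and 1428 in shGFP (log2 fold change -0.71 ± 0.22, SE; edgeR adjusted p = 0.62). Exons of Manf overlap those of Rbm15b on the same strand and 4930524O07Rik on the other. Pdia4, a disulfide isomerase, had 1335 and 936 CPM in Ell2-KD, against 1934 and 1420 in shGFP (-0.56 ± 0.23; edgeR adjusted p = 0.81). Hspa13, an ER-linked member of the HSP70 family, had 275 and 269 CPM in Ell2-KD, against 407 and 351 in shGFP (-0.48 ± 0.21; edgeR adjusted p = 0.84). In each of these the depleted libraries were the lower pair. Hspa5, the chaperone BiP that holds the sensors inactive, had 3554 and 3678 CPM against 4373 and 4171, a smaller difference with groups that did not overlap either. Hsp90b1, the chaperone GRP94, had 6463 and 5117 CPM in Ell2-KD, against 8991 and 6232 in shGFP, with overlap. The exception was Syvn1, a ubiquitin ligase of ER-associated degradation that is named after its values were seen, with 140.0 and 330 CPM in Ell2-KD, against 134 and 198 in shGFP. With 1 library left out, the number of negative targets was 13 to 15 of 16 and their median -0.50 to -0.22.

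Of 22 tested IRE1-XBP1 targets, 13 had a negative and 9 a positive value, none passed, and the median was -0.09. With 1 library left out the median ran from -0.17 to 0.02, the positive value being that without shGFP replicate 1. In 7 of the 22 (31.8%) both Ell2-KD libraries lay below both controls, beside 18.5% of all tested genes, and in none above, beside 17.4%. Xbp1, whose mRNA IRE1 splices, had 3971 and 2251 CPM in Ell2-KD, against 4229 and 2223 in shGFP. The libraries of replicate 1 were the high ones in both groups. Dnajb9, a co-chaperone that restrains IRE1, had 96.1 and 91.6 CPM against 116 and 83.3, and Edem1, which sends misfolded glycoproteins to degradation, 3448 and 2537 against 3509 and 3170. The tested target with the smallest p was Pdia5, a disulfide isomerase, at 24.5 and 12.3 CPM in Ell2-KD, against 42.6 and 34.7 in shGFP (log2 fold change -1.05 ± 0.47, SE; edgeR adjusted p = 0.84). Its value was -1.65 without Ell2-KD replicate 1 and -0.65 without Ell2-KD replicate 2. Dnajb11, an ER co-chaperone of BiP, and Ckap4, an ER membrane protein, came next, with log2 fold changes of -0.41 ± 0.20 and -0.39 ± 0.20. Xbp1 turned to a positive value without Ell2-KD replicate 2 or shGFP replicate 1, Dnajb9 without shGFP replicate 1, and Edem1 without Ell2-KD replicate 2.

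Among 20 partners and activators of the sensors, 10 values were positive and 10 negative, and none passed (median -0.02). With Mbtps1 and Hspa5, the gene of smallest p was Dnajc3, the co-chaperone p58IPK that inhibits PERK, with 138 and 221 CPM in Ell2-KD, against 121 and 147 in shGFP. Ern2, the IRE1 paralog of mucosal epithelia, had 4 and 2 counts in Ell2-KD and 0 and 0 in shGFP, which allows up to 0.36 and 0.59 CPM there by a floor of 3 counts in each library. Both groups were thus near or under that floor, and no fold is given.

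PERK shares its target, eIF2, with 3 other kinases, none of which passed. Eif2ak1, the heme-regulated kinase, had 42.3 and 62.6 CPM in Ell2-KD, against 58.8 and 47.0 in shGFP. Eif2ak2, the double-stranded RNA-activated kinase PKR, had 12.4 and 28.7 CPM in Ell2-KD, against 39.6 and 25.2 in shGFP. Eif2ak4, the amino acid sensor GCN2, had 49.8 and 75.2 CPM, against 40.9 and 52.4. All 3 had groups that overlapped, and the log2 fold change of Eif2ak2 ran from -1.38 to -0.18 with 1 library left out. Of the 23 tested genes of eIF2, its exchange factor eIF2B, the other kinases and the phosphatase, 9 were positive and 14 negative and none passed (median -0.06, though the medians of log2 CPM differences were 0.07 within replicate number 1 and 0.19 within number 2). With 1 library left out the median ran from -0.08 to 0.15. In 6 of the 23 (26.1%) both Ell2-KD libraries lay above both controls, beside 17.4% of all tested genes, and in none below, beside 18.5%. The 3 with the smallest p were of that kind, namely Ppp1ca, a catalytic subunit of protein phosphatase 1, at 493 and 456 CPM against 374 and 348, Eif5, which promotes GTP hydrolysis on eIF2, at 808 and 885 against 677 and 642, and Bzw1, an eIF5 mimic, at 838 and 761 against 594 and 666.

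Most of the downstream factors had lower values in Ell2-KD, with wide error. Of the 7, 6 had a negative log2 fold change and 1, Atf5, a positive one, where 50.1% of all tested genes were negative. Without Ell2-KD replicate 1, 5 of the 7 were negative. The median was -0.61, beside -0.00 over all tested genes, and is the value of Trib3, which had 3 counts in Ell2-KD replicate 2. None of the 7 passed. In 2 of the 7 (28.6%) the groups did not overlap (Atf5 above, Cebpb below), beside 35.8% of all tested genes. Low counts limited this set, since 3 of its members, Ddit3, Ppp1r15a and Trib3, had under 10 counts in at least 1 Ell2-KD library.

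Atf4, the transcription factor made when eIF2 is phosphorylated, had 276 and 156 CPM in Ell2-KD, against 321 and 249 in shGFP. Ell2-KD replicate 1 lay between the controls and replicate 2 below both. The log2 fold change was -0.40 ± 0.29 (SE; 95% interval from -1.04 to 0.24; edgeR adjusted p = 0.95), and it was -0.87 without Ell2-KD replicate 1 and -0.04 without Ell2-KD replicate 2. The size of the Atf4 difference therefore changed most with the depleted library left out. It also moved with the controls, to -0.19 without shGFP replicate 1 and -0.57 without shGFP replicate 2.

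Ddit3, which encodes the stress factor CHOP, had 1 and 20 counts in Ell2-KD, against 36 and 18 in shGFP. The deepest library of the study thus held 1 read of it, and the shallowest 20. Relative to all counts this is 0.072 CPM (exact Poisson 95% interval 0.0018 to 0.40, counting error only) and 5.72 CPM (3.49 to 8.83) in Ell2-KD, against 4.32 (3.03 to 5.99) and 3.54 (2.10 to 5.59) in shGFP. The interval of Ell2-KD replicate 1 lay below the other 3, which overlapped one another. A gap as large as that between the Ell2-KD libraries was seen in 0.671% of tested genes. The log2 fold change was -0.49 ± 1.57 (SE; edgeR adjusted p = 1.00), and it was -5.54 without Ell2-KD replicate 2 and 0.57 without Ell2-KD replicate 1. Exons of Ddit3 overlap those of Mars and Gm4189 on the other strand, and the strand setting of the counting is not known.

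Ppp1r15a, the GADD34 subunit that brings a phosphatase to eIF2 and so ends the PERK signal, scattered in the same group but the other way round. It had 179 and 6 counts in Ell2-KD, against 101 and 106 in shGFP, or 12.7 and 1.76 CPM against 12.0 and 21.0 CPM. Ell2-KD replicate 1 lay within the range of the controls and replicate 2 far below it. A gap as large as that between the Ell2-KD libraries was seen in 5.96% of tested genes. The log2 fold change was -1.13 ± 0.82 (SE; edgeR adjusted p = 0.95). Without Ell2-KD replicate 1, which leaves the library of 6 counts alone in its group, it was -3.21 and passed (edgeR adjusted p = 0.047, against 0.61 to 1.00 in the other alternatives), and without Ell2-KD replicate 2 it was -0.37. Exons of Ppp1r15a overlap those of Tulp2 on the other strand. Its constitutive counterpart Ppp1r15b, the CReP subunit, had 890 and 687 CPM in Ell2-KD, against 939 and 706 in shGFP, with overlap.

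Trib3, a pseudokinase that CHOP induces and that restrains ATF4, had 42 and 3 counts in Ell2-KD, against 20 and 19 in shGFP. In CPM these were 2.98 and 0.88 against 2.38 and 3.77, with overlap (log2 fold change -0.61 ± 1.33, SE; edgeR adjusted p = 1.00). The value was -1.77 without Ell2-KD replicate 1 and -0.03 without Ell2-KD replicate 2. Of its relatives, Trib1 had 177 and 206 CPM in Ell2-KD, against 142 and 229 in shGFP, and Trib2 had 8 and 1 counts against 4 and 3.

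Atf3, a stress-induced factor of the same bZIP family, had 4.19 and 11.1 CPM in Ell2-KD, against 16.0 and 9.92 in shGFP. The low library was Ell2-KD replicate 1, as for Ddit3. The log2 fold change was -0.79 ± 0.73 (SE; edgeR adjusted p = 0.97), with -0.23 without Ell2-KD replicate 1 and -1.62 without Ell2-KD replicate 2.

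Atf5, whose mRNA is translated under stress by the same kind of upstream reading frames as that of Atf4, had 46.0 and 48.3 CPM in Ell2-KD, against 42.6 and 41.1 in shGFP. It varied least of the 7, and its log2 fold change was 0.17 ± 0.35 (SE; edgeR adjusted p = 1.00). Its exons overlap Il4i1 and Nup62 in the annotation. Cebpb, the C/EBP factor that pairs with CHOP and ATF4, had 9.29 and 12.0 CPM in Ell2-KD, against 16.0 and 23.0 in shGFP. The depleted libraries were the lower pair, with a log2 fold change of -0.88 ± 0.56 (SE; 95% interval from -2.10 to 0.35; edgeR adjusted p = 0.91) that ran from -1.11 to -0.59 with 1 library left out. Its relative Cebpg, another partner of ATF4, had 81.6 and 85.5 CPM against 60.7 and 94.5, while Cebpa and Cebpd had 9 counts or fewer in every library.

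Within replicate number 1 and within number 2, 3 members were lower both times (Atf6, Atf4 and Cebpb), 2 were higher both times (Eif2ak3 and Atf5) and 5 had opposite signs, where 42.7% of all tested genes had opposite signs. For Atf6 the difference in log2 CPM was -0.59 within number 1 and -0.71 within number 2, for Cebpb -0.77 and -0.92, and for Atf5 0.11 and 0.23. For Ddit3 it was -3.79 and 0.67, for Atf3 -1.87 and 0.16, for Ppp1r15a 0.07 and -3.40, and for Trib3 0.29 and -1.83. The largest differences within a replicate number therefore came from members with their lowest CPM in 1 depleted library, and not the same one. This was replicate 1 for Ddit3 and Atf3 and replicate 2 for Ppp1r15a and Trib3. For Trib3 that library held only 3 counts. Its exact Poisson interval there, 0.18 to 2.51 CPM of all counts, overlapped that of every other library. Overlap of such intervals does not test a difference, and whether Trib3 was lower in that library was not tested. Cebpb, with a log2 fold change of -0.88, was lower in both depleted libraries.

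**Figure D3:**
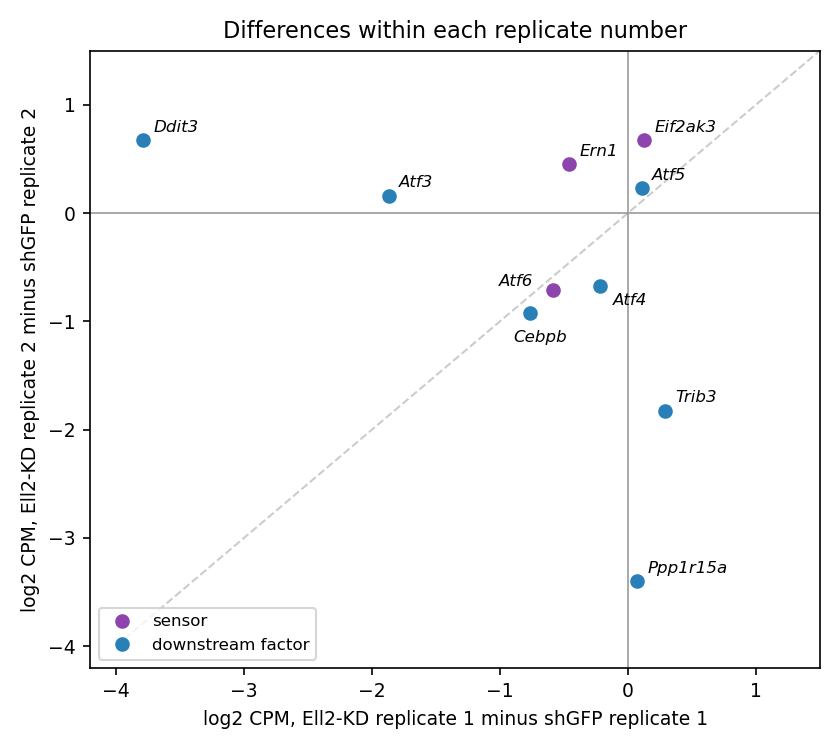
Difference in log2 CPM, Ell2-KD minus shGFP, within replicate number 1 (x axis) and within number 2 (y axis), for sensors (purple) and downstream factors (blue), with the line of equality dashed. Atf6 and Cebpb lie near the line below 0, while Ddit3, at -3.79 and 0.67, and Ppp1r15a, at 0.07 and -3.40, lie far from it on opposite sides.

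**Figure D4:**
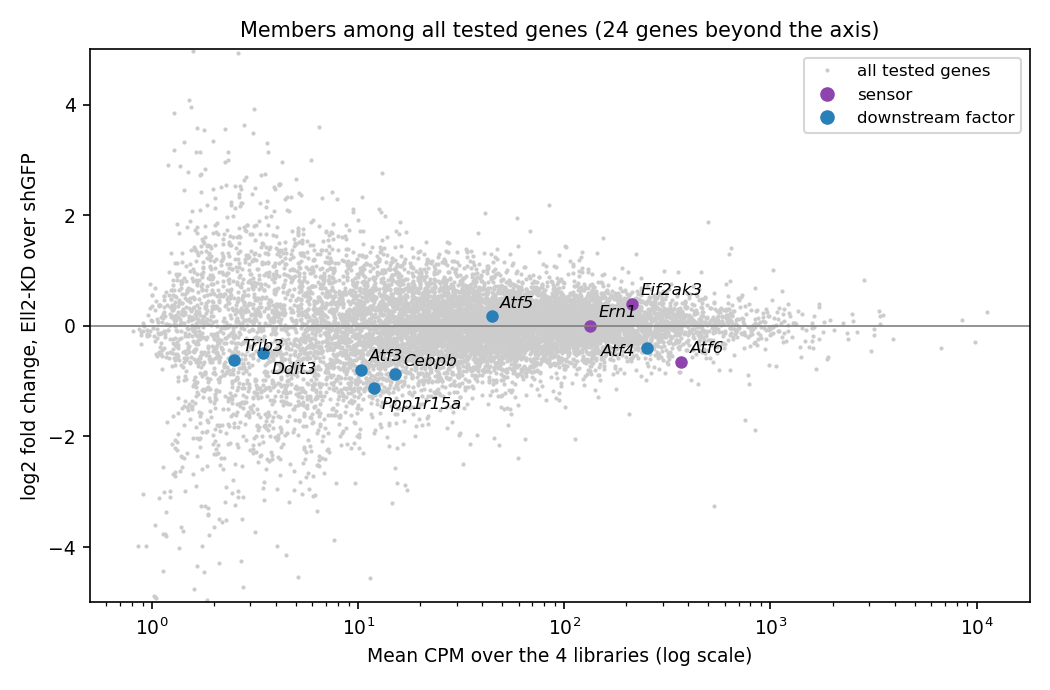
Log2 fold change, Ell2-KD over shGFP, against mean CPM over the 4 libraries (log axis) for the 11027 tested genes in grey, with the members in colour; 24 genes lie beyond the axis limits of -5 and 5. Ddit3 and Trib3 sit among the low-count genes on the left, and Atf6, at -0.65, among the more abundant ones.

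Promoter sequence was examined for the composite element to which C/EBP and ATF factors such as CHOP and ATF4 bind, since several of these factors are encoded by members of the set. The letters TGATGNAA, on either strand, were looked for in RefSeq promoter windows (GRCm38.p6, 250 bases before to 50 after each start), of which 3.97% of 32851 held them. Atf6 had no window, so its promoter was not searched for this or the other motifs. Of the 9 members with a window, 2 held a match, Atf3 and Trib3, and both are shown 5′ to 3′ on the strand of the gene with the match in capitals. The Atf3 match lies 110 to 103 bases before the start (chr1:191183406-191183473, minus strand), and the Trib3 match 14 to 21 bases after it (chr2:152344028-152344057, minus strand).
Atf3: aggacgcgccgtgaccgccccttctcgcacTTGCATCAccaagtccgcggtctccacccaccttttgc
Trib3: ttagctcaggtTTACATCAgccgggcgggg
The letters TGACGTGG, the core that XBP1 and ATF6 bind, were in 0.676% of all windows and the ER stress element in 0.119%, and neither was in a window of the members. Both genes with a match had negative but uncalled log2 fold changes (-0.79 for Atf3, -0.61 for Trib3), as did Atf4, Ddit3, Ppp1r15a and Cebpb, whose windows had none.

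Known targets of ATF4 and CHOP were more often negative than positive. Of 54 listed genes apart from the members 47 were tested, of which 33 had a negative and 14 a positive log2 fold change, with a median of -0.20 and none past the test. That is 70.2% negative, beside 50.1% of all tested genes, and the median ran from -0.31 to -0.12 with 1 library left out. In 14 of the 47 both Ell2-KD libraries lay below both controls and in 2 above, together 34.04%, beside 35.8% of all tested genes (18.5% below and 17.4% above). Aldh1l2, a mitochondrial folate enzyme, had 5.11 and 13.8 CPM in Ell2-KD, against 26.0 and 37.1 in shGFP (log2 fold change -1.78 ± 0.59, SE; edgeR adjusted p = 0.69), and without Ell2-KD replicate 2 it passed, at -2.61 (edgeR adjusted p = 0.013, against 0.20 to 1.00 in the other alternatives). Slc7a11, the cystine transporter, had 47.0 and 23.7 CPM in Ell2-KD, against 63.2 and 72.4 in shGFP (-0.92 ± 0.39), and its value was -1.51 without Ell2-KD replicate 1 and -0.52 without Ell2-KD replicate 2. Yars, the tyrosyl-tRNA synthetase, had 190 and 145 CPM in Ell2-KD, against 255 and 248 in shGFP (-0.58 ± 0.24).

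Targets often used to read the response were less uniform. Asns, asparagine synthetase, had 581 and 544 CPM in Ell2-KD, against 511 and 698 in shGFP. Chac1, a glutathione-degrading enzyme downstream of CHOP, had 20.1 and 18.1 CPM, against 32.1 and 20.0. Herpud1, a component of ER-associated degradation that ATF4 and ATF6 both induce, had 124 and 92.2 CPM, against 165 and 88.3. Sesn2, a sestrin that restrains mTORC1, had 18.1 and 21.4 CPM, against 26.0 and 7.34, and Ddit4, the mTORC1 inhibitor REDD1, had 44.0 and 48.3 CPM, against 22.5 and 44.6. In all 5 the groups overlapped. The sign of Asns, Herpud1 and Sesn2 turned when 1 library was left out, while Ddit4 stayed positive (0.06 to 1.03) and Chac1 negative (-0.74 to -0.05).

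Of 34 paralogs and bZIP partners 23 were tested, 11 positive and 12 negative, with none past the test (median -0.01, and 0.03 to 0.09 with 1 library left out). The smallest p after Atf6b belonged to Fos, a partner of the ATF factors, with 13.3 and 8.49 CPM in Ell2-KD, against 3.82 and 3.18 in shGFP (log2 fold change 1.64 ± 0.82, SE; edgeR adjusted p = 0.87), and to Nfe2l1, an ER-anchored bZIP factor, with 186 and 107 CPM against 234 and 167. Among 17 tested genes of cell death and survival tied to CHOP or PERK, 7 were positive and 10 negative (median -0.10, with medians of log2 CPM differences of 0.07 and 0.01 within the replicate numbers, and a median of -0.09 to 0.14 with 1 library left out). Of these 1 passed as lower, beside 0.0363% of all tested genes. It was Trp53inp1, a stress protein of autophagy and cell death, with 389 and 322 CPM in Ell2-KD, against 1327 and 981 in shGFP. Its log2 fold change was -1.70 ± 0.23 (SE, edgeR adjusted p = 0.043). The edgeR adjusted p was 0.053 with scaling by library totals and 0.052 under a stricter filter, so the call is lost there. This list was drawn up with earlier results known, so the call is no evidence of a link to CHOP or PERK. Gadd45b, a stress sensor gene, had 85.1 and 58.0 CPM in Ell2-KD, against 137 and 156 in shGFP (edgeR adjusted p = 0.58, and 0.047 without Ell2-KD replicate 1, against 0.15 to 0.87 in the other alternatives). Bcl2, an inhibitor of apoptosis that CHOP is known to repress, had 29.9 and 33.4 CPM in Ell2-KD, against 10.0 and 12.1 in shGFP (log2 fold change 1.52 ± 0.48, SE; edgeR adjusted p = 0.65).

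**Figure D5:**
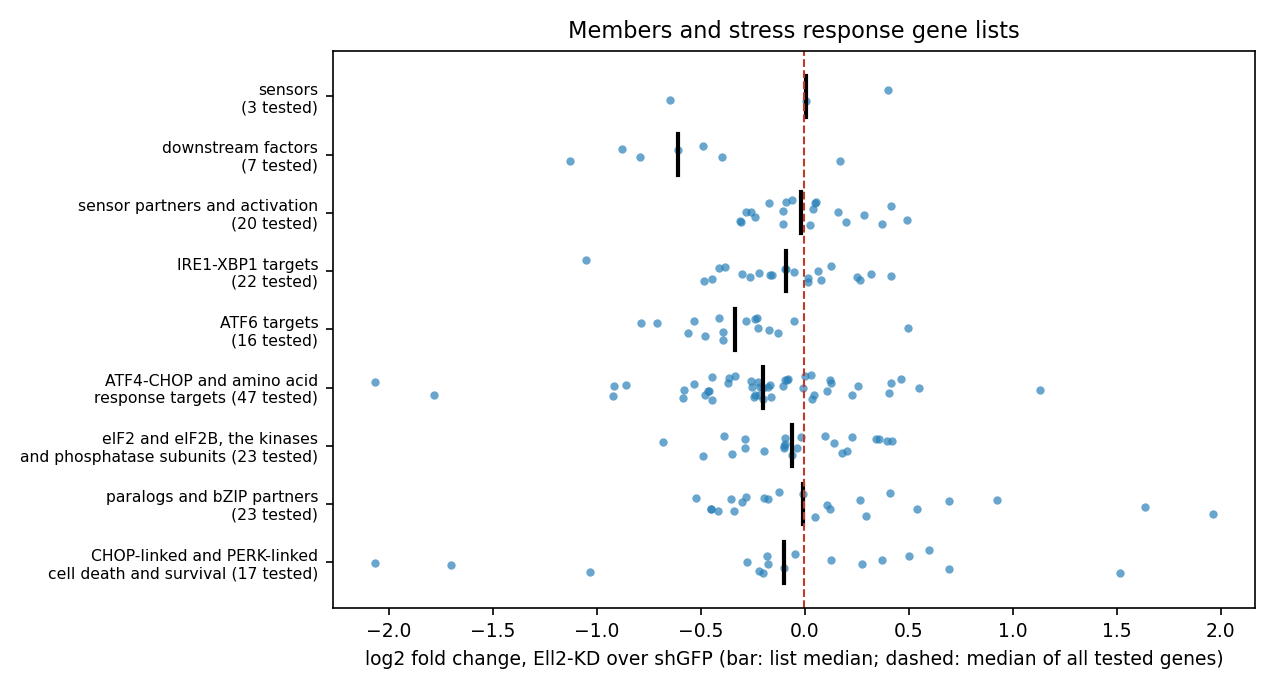
Log2 fold change, Ell2-KD over shGFP, of each tested gene (points) of the sensors, the downstream factors and 7 stress response lists without the members, with list medians as black bars and the median of all tested genes dashed. The medians of the downstream factors (-0.61), the ATF6 targets (-0.34) and the ATF4-CHOP targets (-0.20) lie left of the dashed line, and the other lists lie between -0.10 and 0.01.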

How the data were processed

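Each deposited file lists, for 1 library, whole-number read counts by gene symbol, and the authors' counts were used without change. Per the submitters' processing notes, HTSeq 0.5.3, SAMtools 0.1.11 and DESeq 1.4.1 were among the tools and mm9 was the genome build; which aligner, gene annotation and strand mode were used is not given in the sources used here. None of the entries lacked a gene name. The test was run with edgeR 4.0.16 under R 4.3.3: filterByExpr (minimum count 10, minimum total 15), TMM scaling and the two-sided quasi-likelihood test with robust settings, group as the only term, tried first on simulated data. The SE of a log2 fold change is its size over the square root of F. The common biological coefficient of variation was 0.43, which with 2 libraries a group leaves small differences undetectable. Differences within a replicate number are of log2 CPM with a prior count of 2. Exon lengths and overlaps came from GENCODE M21 (GRCm38), which is not the build of the counts, and promoters from RefSeq. Overlaps are given for Ell2, the members and Manf. Exons of some other named genes, such as Aldh1l2, Yars and Bcl2, also overlap other genes.

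The 10 members and all lists were chosen with earlier results of these data known, so no p is adjusted over a list and no list was tested. Named in full were the members, 11 paralogs, 10 pathway anchors, and the 3 tested genes with the smallest p of each list and any past the threshold. Of the listed and marker symbols, 3 were matched through an older symbol and 3 not at all. Alternatives were RLE or no scaling, no filter or a stricter one (5 CPM in 2 libraries), DESeq2 1.42.0, the replicate block and leaving out each library.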

Additional observations from a re-analysis of the deposited data

How the results depend on the processing

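Of 468 alternative values over 47 named and tested genes, 442 kept direction and side of the threshold. The number of members past the test was 0 under the other scalings, filters and tests, and 0 to 1 with 1 library left out (Ppp1r15a). Over all genes 5 passed, against 2 with scaling by totals, 22 without a filter, 2 under the stricter filter, 46 by DESeq2, 28 with the replicate number as a block (replicate block) and 14 to 142 with 1 library left out. The labels do not say that a number marks a shared batch, so the numbers were not taken to pair the libraries. Same-numbered libraries did deviate together, with a correlation of 0.31 over genes. In log2 CPM both same-numbered pairs correlated at 0.919, against 0.883 between the Ell2-KD libraries and 0.919 between the shGFP libraries. Ell2-KD replicate 1 and shGFP replicate 2 correlated at 0.908, and Ell2-KD replicate 2 and shGFP replicate 1 at 0.871. Replicate 1 was the deeper library in both groups, so depth follows the number. Whether a number marks a shared batch, and the part of depth, were not tested. The block called no member, and with it the unadjusted edgeR p was 0.0020 for Atf6 and 0.038 for Atf4. Ern1 turned to -0.0056 with scaling by totals and -0.013 with the block, and Xbp1 to 0.013 without a filter. With 1 library left out, values crossing 0 ran from -0.28 to 0.26 for Ern1, -5.54 to 0.57 for Ddit3, -0.31 to 0.24 for Eif2ak1, -0.26 to 0.17 for Ppp1r15b, -0.25 to 0.43 for Trib1, -0.17 to 0.46 for Cebpg, -0.52 to 0.50 for Xbp1, -0.31 to 0.18 for Dnajb9, -0.40 to 0.054 for Edem1, -0.61 to 0.31 for Herpud1, -0.30 to 0.13 for Asns and -0.40 to 1.43 for Sesn2; the cause was not tested. The median of the sensors ran from -0.28 to 0.26 and that of the downstream factors from -0.69 to -0.37. A fit without a library leaves 1 in that group, which is assumed to vary like the other group. The stricter filter removed Ddit3 and Trib3, whose levels were below it, so they have no value there.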
